A study of Mus musculus with 9 samples.

Results

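In mouse testis, 10 genes that mark or control spermatogonia were followed through acRIP-seq. They were Zbtb16, Gfra1, Nanos2, Nanos3, Id4, Sall4 and Lin28a, known from stem and progenitor cells, Kit, known from differentiating cells, and Dmrt1 and Sohlh1, transcription factors that act around the step between them. The 10 were chosen by name out of 55401 genes in the table of counts, with earlier results of these data known. All 10 were matched to a gene symbol. The assay precipitates poly(A) RNA on beads that carry an antibody to N4-acetylcytidine (ac4C), a modified cytidine that NAT10 places on RNA, and sequences what is bound. There were 3 libraries precipitated by the ac4C antibody (acRIP), 3 precipitated by a rabbit IgG isotype control (IgG) and 3 made without precipitation (input). All 9 libraries came from testis of wild-type males (ICR, the strain that the methods name), and no treatment is named in the labels. The age of the animals used for these libraries and the number of testes behind each library are not given in the sources used here. The study describes the testis experiment as done in triplicate, and most of its experiments as having independent samples and repeats, without saying whether the libraries of a group were separate precipitations, so the p-values measure only the spread between these libraries, which may be technical.

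Spermatogonia are the mitotic germ cells on the basement membrane of the seminiferous tubule. A small stem cell pool renews itself under GDNF, which Sertoli and peritubular cells secrete and which binds GFRA1 together with the kinase RET. Retinoic acid then moves progenitors to the KIT-positive state, in which the cells depend on KIT ligand, divide a fixed number of times and enter meiosis. RNA acetylated on cytidine has been linked to the stability and translation of the modified transcripts.

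Total counts were 22023925 to 31340090 in the input libraries, 14647542 to 18786779 in IgG and 16025779 to 18639134 in acRIP. The 10 members together held only 1207 to 2083 of these counts in a library. In the 9 libraries, 81.9% to 84.3% of counts from 1 to 20 were even, as were 72 of the members' 90 counts (80%), so the number of sequenced fragments is likely below the number of counts. Genes of several testis cell types were present. Prm1, a protamine of spermatids, stood at 8938 ± 1089 FPKM in input (SD, n = 3), Sycp3 of the meiotic chromosome axis at 57.8 ± 3.83, and Star of Leydig cells at 24.7 ± 1.05. The Sertoli genes Clu and Cldn11 stood at 220 ± 5.07 and 36.9 ± 1.29 FPKM in input, whereas the Sertoli gene Rhox5 had at most 3 counts in every library. The mast cell proteases Mcpt4, Tpsb2 and Cma1 also had at most 3 counts, while the mast cell gene Cpa3 had 6 to 43. In bulk tissue, fewer cells of a type and less RNA per cell cannot be told apart.

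The members were scarce transcripts in this tissue. In input, the 6 most abundant were Sohlh1 at 3.5 ± 0.863 FPKM, Nanos3 at 3.0 ± 0.359, Kit at 2.58 ± 0.149, Id4 at 2.03 ± 0.153, Gfra1 at 1.92 ± 0.272 and Dmrt1 at 1.72 ± 0.245 (SD, n = 3 for each). FPKM, a count divided by gene length and by the library's total, allows levels to be compared between genes of different length. In this order Sohlh1, Nanos3 and Kit overlapped with their neighbours, all 3 Kit libraries lay above all 3 Id4 libraries, and Id4, Gfra1 and Dmrt1 overlapped again. Zbtb16 (0.273 ± 0.119), Sall4 (0.265 ± 0.0930) and Lin28a (0.203 ± 0.0601) formed a lower group whose libraries overlapped with each other and with no gene of the upper group. Nanos2 had 0, 1 and 0 counts in input. Summed over the 10 genes, FPKM was 15.0 to 15.9 in input, 29.0 to 34.5 in IgG and 25.4 to 29.8 in acRIP, so both precipitated groups lay above input and overlapped with each other. Id4 alone went from 2.03 FPKM in input to 14.2 ± 1.79 in IgG and 11.1 ± 0.664 in acRIP. In acRIP it was followed by Nanos3 at 5.02 ± 1.63, Sohlh1 at 3.87 ± 0.715, Dmrt1 at 2.89 ± 1.38, Zbtb16 at 1.76 ± 0.290 and Kit at 1.42 ± 0.183. Lin28a at 0.507 ± 0.155 and Gfra1 at 0.503 ± 0.0454 stood level with overlapping values, whereas in input Gfra1 lay above Lin28a. Sall4 at 0.177 ± 0.0400 was the lowest gene with a level above the floor.

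**Figure D1:**
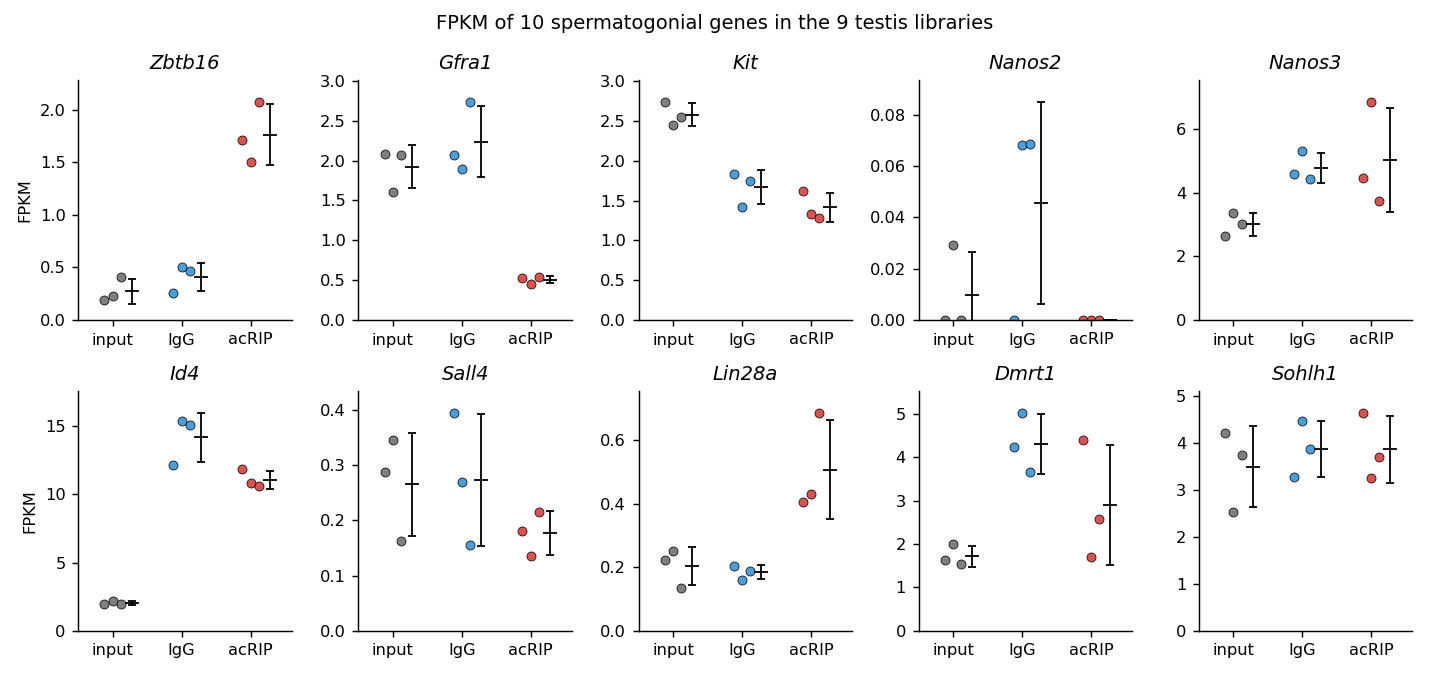
FPKM (vertical axis, linear from 0, a scale of its own for each gene) of the 10 members in the 3 input, 3 IgG and 3 acRIP libraries. Coloured points are single libraries in replicate order, and the black bar beside them gives the mean and SD of the 3, with any lower arm stopped at 0. Zbtb16 and Lin28a stand highest in acRIP, Gfra1 lowest in acRIP, and Id4 high in both precipitated groups.

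Since the counts are summed over whole genes, they do not place a modified base. The transcripts of the 3 members that differed between acRIP and both other groups are therefore shown only through the short patterns which the study's motif search named. Written in DNA letters, these are TCCCAGCT, found in HEK293T cells (a human embryonic kidney line), and the testis pattern CNCAGNNC, in which the second N stands for C or G and the other N letters for A, C or T. Both were searched on the RNA strand alone, in the longest coding transcript of each gene (GENCODE vM21, mm10). In the lines below, the matched pattern is in capitals and the bases around it are in lower case.
Zbtb16, 3′ UTR, exon 7 of 7, chr9:48656170-48656177, minus strand: tgcaaccgcagCTCAGCCCctaggggaagg
Gfra1, coding part, exon 11 of 11, chr19:58238471-58238478, minus strand: atggctgctccTCCCAGCTgcggtctgagc
Gfra1, 3′ UTR, exon 11 of 11, chr19:58237761-58237768, minus strand: tgtggtccttgCACAGCACccgggattgtt
Gfra1, 3′ UTR, exon 11 of 11, chr19:58237551-58237558, minus strand: ggtttaatacaCACAGCCCttgcccctcat
Lin28a, coding part, exon 4 of 4, chr4:134006261-134006268, minus strand: caagctgccacCCCAGCCCaagaagtgcca
Lin28a, coding part, exon 4 of 4, chr4:134006133-134006140, minus strand: aggaagagatcCACAGCCCtgccctgctcc
Lin28a, 3′ UTR, exon 4 of 4, chr4:134005978-134005985, minus strand: cactgccgtgtCTCAGGCCggggttcccag
Lin28a, 3′ UTR, exon 4 of 4, chr4:134005550-134005557, minus strand: cacacctcactCCCAGCCCtttctgggcca

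The recovery that depended on the antibody was asked first, by acRIP over IgG. Of the 9 members with enough counts to be tested, 2 were higher in acRIP (Zbtb16 and Lin28a) and 1 was lower (Gfra1), where a call needed more than a 2-fold change and an adjusted p under 0.05. Among all 22510 genes tested, 11.5% were called higher and 20.9% lower. The median log2 fold change of the members was -0.19, beside -0.09 over all genes. Against input, 3 members were higher in acRIP (Zbtb16, Id4 and Lin28a) and 1 was lower (Gfra1), beside 17.7% and 22.9% of all genes, and the medians were 0.82 for the members and -0.10 for all genes. In IgG over input, a comparison without the ac4C antibody, 2 members were higher (Id4 and Dmrt1) and 0 lower, beside 13.5% and 7.22%, with medians of 0.25 and -0.01. Precipitated RNA was too scarce to quantify, unlike input RNA, so IgG over input does not isolate binding to the beads. Against IgG and input together, Zbtb16 and Lin28a were higher in acRIP, beside 7.88% of all genes, and Gfra1 was lower than in both, beside 17.0%. The 3 comparisons share libraries and are not independent of each other. With so few members, these shares are given as a description.

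**Figure D2:**
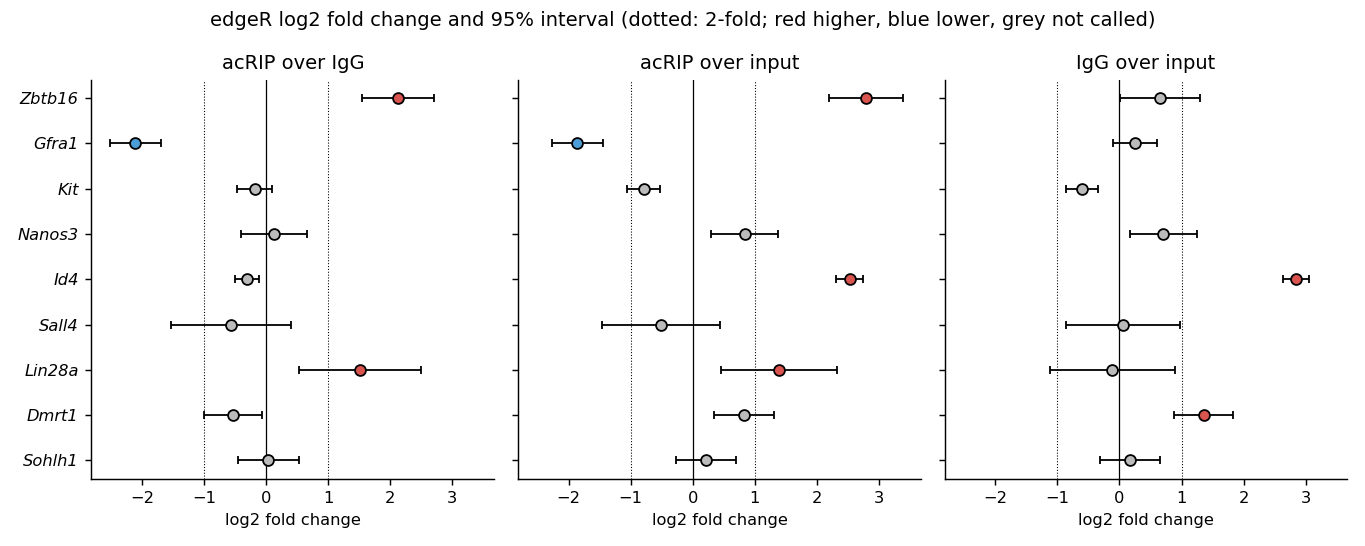
edgeR log2 fold change (horizontal axis) of the 9 tested members in the 3 comparisons, with the 95% interval as a bar, 0 as a solid line and a 2-fold change as dotted lines. Red points were called higher, blue points lower and grey points were not called. Zbtb16 and Lin28a lie to the right and Gfra1 to the left in both comparisons of acRIP, while Id4 lies to the right of input in acRIP and in IgG alike.

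Zbtb16 encodes PLZF, a zinc finger repressor needed to maintain the stem cell pool. The gene lies on chromosome 9 (chr9:48654297-48836222, minus strand, mm10) and had the largest rise over IgG of the 9 tested members. Its normalised CPM (counts scaled to library size by the TMM method) were 9.33, 8.27 and 11.2 in acRIP, 1.36, 2.65 and 2.47 in IgG and 0.970, 1.15 and 2.10 in input. All 3 acRIP libraries stood above every other library, while IgG and input overlapped. The rise over IgG was 2.13 on the log2 scale (SE 0.285), or 4.38-fold, with an edgeR adjusted p of 1.52e-07, and that over input was 2.79 (SE 0.290), or 6.90-fold, with an adjusted p of 4.74e-10. Among all genes tested, these values lay at percentiles 95.2 and 95.9. IgG over input was 0.66 (SE 0.314) and not called, at an edgeR adjusted p of 0.0801, but it was 1.06 and called without input replicate 3 (adjusted p 0.0111). The raw counts behind the gene were 145 to 184 in acRIP, 20 to 50 in IgG and 26 to 48 in input.

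Lin28a encodes an RNA-binding protein that blocks the maturation of let-7 microRNAs and is found in progenitor spermatogonia. It lies on chromosome 4 (chr4:134003330-134018841, minus strand) and gave 1.67, 1.79 and 2.80 normalised CPM in acRIP, 0.815, 0.636 and 0.753 in IgG and 0.876, 0.974 and 0.526 in input. The acRIP libraries lay above all 6 others without overlap. It was 1.50 higher on the log2 scale than in IgG (SE 0.481, 2.84-fold) and 1.39 higher than in input (SE 0.462, 2.62-fold), with edgeR adjusted p of 0.00729 and 0.00823. The 95% intervals ran from 0.52 to 2.49 and from 0.45 to 2.33. These rested on 26, 32 and 46 counts in acRIP against 12, 12 and 14 in IgG. Without acRIP replicate 3 both calls were lost (1.24, adjusted p 0.0559, and 1.13, adjusted p 0.0661). IgG over input was -0.12 (SE 0.494) and was not called.

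Gfra1 encodes the GDNF co-receptor on the surface of the stem cells and moved the other way. It lies on chromosome 19 (chr19:58235604-58455909, minus strand). Its normalised CPM were 2.96, 2.57 and 2.99 in acRIP, 11.3, 10.3 and 15.0 in IgG and 11.2, 8.59 and 11.1 in input. The acRIP libraries were the 3 lowest of the 9, and IgG and input overlapped. It fell by 2.11 on the log2 scale against IgG (SE 0.203, a 4.31-fold decrease) and by 1.86 against input (SE 0.201, 3.63-fold), with edgeR adjusted p of 3.00e-10 and 1.10e-09. These values lay at percentiles 13.9 and 15.2 of all genes tested. IgG over input was 0.25 (95% interval -0.11 to 0.60). The raw counts were 46, 46 and 49 in acRIP against 166 to 279 in IgG.

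Id4, an inhibitor of bHLH transcription factors that marks the stem cells themselves, had the highest log2 fold change of the 9 tested members in IgG over input. The gene lies on chromosome 13 (chr13:48261228-48266026, plus strand). Its normalised CPM were 7.32, 8.28 and 7.28 in input, 46.5, 59.0 and 57.9 in IgG and 47.0, 43.3 and 41.7 in acRIP. Both precipitated groups stood far above input and overlapped with each other. The rise over input was 2.84 in IgG (SE 0.106, 7.17-fold) and 2.53 in acRIP (SE 0.107, 5.78-fold), with edgeR adjusted p of 3.30e-21 and 7.46e-20. In acRIP over IgG it was -0.31 (SE 0.0928, 95% interval -0.50 to -0.12), with an adjusted p of 0.00422 and a change under 2-fold, so it was not called. Its IgG over input value lay at percentile 97.7 of all genes tested. A comparison of acRIP with input alone would call Id4 higher, and a comparison with IgG alone would not.

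Dmrt1, a DM-domain factor that keeps spermatogonia in mitosis, was also higher in IgG than in input. On chromosome 19 (chr19:25505618-25604329, plus strand), it had 4.16, 5.05 and 3.86 normalised CPM in input, 10.9, 13.0 and 9.46 in IgG and 11.8, 4.58 and 6.82 in acRIP. The 3 IgG libraries lay above the 3 input libraries, whereas acRIP replicate 1 reached the IgG level and acRIP replicate 2 lay within the input range. IgG over input was 1.36 (SE 0.233, edgeR adjusted p 9.61e-06, 2.56-fold). In acRIP over input it was 0.82 (adjusted p 0.00279) and in acRIP over IgG -0.54 (adjusted p 0.0416), both under 2-fold and not called. Both values turned on which acRIP library was kept. Without acRIP replicate 2, acRIP over input became 1.10 and passed (edgeR adjusted p 7.15e-05) and acRIP over IgG became -0.26 (adjusted p 0.320). Without acRIP replicate 1 they became 0.40 (adjusted p 0.131) and -0.96 (adjusted p 0.000783), neither of them called.

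Kit, the receptor tyrosine kinase of differentiating spermatogonia, was lower in both precipitated groups than in input, by less than 2-fold. The gene lies on chromosome 5 (chr5:75574916-75656722, plus strand). Its normalised CPM were 24.0, 21.3 and 22.1 in input, 16.2, 12.6 and 15.6 in IgG and 14.9, 12.4 and 11.7 in acRIP. Input stood above all 6 precipitated libraries, and IgG and acRIP overlapped. The log2 fold change was -0.79 in acRIP over input (edgeR adjusted p 3.03e-06) and -0.60 in IgG over input (adjusted p 0.000187), and neither was called. In acRIP over IgG it was -0.19, with a 95% interval from -0.46 to 0.09. Besides the germ line, Kit is made by Leydig and mast cells. Of the mast cell genes, Cpa3 had 6 to 43 counts in a library and the other 3 at most 3, and the summed level of 6 Leydig genes was 644 to 718 FPKM in input, 623 to 641 in IgG and 588 to 641 in acRIP. Their part in the level of Kit was not tested.

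Nanos3 and Nanos2 encode RNA-binding proteins that recruit the CCR4-NOT deadenylase, with Nanos2 confined to the most undifferentiated male germ cells. Nanos3 (chr8:84173731-84185217, minus strand) had 2.38, 3.01 and 2.72 normalised CPM in input, 4.21, 4.88 and 4.09 in IgG and 4.25, 6.59 and 3.53 in acRIP. Every precipitated library lay above input, and the 2 precipitated groups overlapped. The log2 fold change was 0.84 in acRIP over input (edgeR adjusted p 0.00545) and 0.71 in IgG over input (adjusted p 0.0249), both under 2-fold, and 0.13 in acRIP over IgG (95% interval -0.40 to 0.66). Without acRIP replicate 3, acRIP over input was 1.02 and was called (edgeR adjusted p 0.00156). Without acRIP replicate 2 it was 0.54 (adjusted p 0.0937), and acRIP over IgG turned to -0.17. Nanos2 (chr7:18987400-18988962, plus strand) had 0 counts in 6 libraries, 1 in input replicate 2 and 2 each in IgG replicates 2 and 3. A library with a count of 0 still allows up to 3 counts of Nanos2. These are at most 0.0872 FPKM in an input library, 0.131 in IgG and 0.120 in acRIP. The gene was not tested. These floors cover counting error only and would be higher if each read pair gave 2 counts.

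Sall4 and Sohlh1 were called in none of the 3 comparisons. Sall4, a zinc finger factor of undifferentiated spermatogonia (chr2:168748332-168767943, minus strand), had 0.877 to 1.86 normalised CPM in input, 0.860 to 2.17 in IgG and 0.782 to 1.22 in acRIP, so that all 3 groups overlapped. Its log2 fold change in acRIP over IgG was -0.56, with a 95% interval from -1.53 to 0.40, which leaves room for a decrease of more than 2-fold at 14 to 50 counts a library. Sohlh1, a bHLH factor that drives differentiation (chr2:25842995-25847248, minus strand), had 3.19 to 5.32 normalised CPM in input, 4.21 to 5.72 in IgG and 4.36 to 6.18 in acRIP. Its groups overlapped as well. The log2 fold change was 0.04 in acRIP over IgG (95% interval -0.45 to 0.53) and 0.21 in acRIP over input (95% interval -0.27 to 0.70), intervals that hold no 2-fold change in either direction.

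The ratio of mean FPKM + 1 between groups, a scale which the study also used, damps the change of genes at low levels. On this scale Zbtb16 stood at 1.96 in acRIP over IgG and 2.17 in acRIP over input, and Lin28a at 1.27 and 1.25. Id4 stood at 3.99 over input and 0.795 over IgG. Gfra1 stood at 0.465 and 0.514, while Kit, Nanos2, Nanos3, Sall4, Dmrt1 and Sohlh1 lay between 0.734 and 1.04 over IgG and between 0.675 and 1.51 over input. Thus 0 of the 10 members exceeded a ratio of 2 in both comparisons, and Zbtb16 came nearest to it. Among all 35699 genes on this scale, 1015 exceeded 2 over IgG and 1852 over input when a limma adjusted p under 0.05 was also asked. The share of all genes over 2 in both comparisons is not given here. With 10 members, the count of 0 is a description only.

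Several members share bases with genes on the other strand, and whether the counting used strand is not stated, so reads of the overlap cannot be assigned with certainty. Nanos2 shared the largest part of its length, 766 bases (49.0%), with the antisense gene Gm45058, which had 0 counts in all 9 libraries. Gfra1 shared 416 bases (7.60%) with Gm16277, which had 0 to 14 counts in input and 0 in the other libraries. For Id4 the overlaps with A330033J07Rik and Gm49291 covered 82 and 171 bases, for Sall4 that with Gm14261 covered 526 bases and for Lin28a that with Gm13061 covered 234 bases. The highest count of any of these 4 genes was 12, for Gm49291 in IgG replicate 1, where Id4 had 684.

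The transcripts of the members did not share a composition. GC content ran from 42.6% in Id4, at percentile 14.1 of 15526 coding transcripts of tested genes, to 58.1% in Sohlh1, at percentile 90.3, with 53.6% in Zbtb16, 50.1% in Lin28a and 49.7% in Gfra1. Of the 2 patterns, TCCCAGCT was found only once in the 10 transcripts, in the last exon of Gfra1, the gene that fell. It is held by 13.5% of all coding transcripts and by 17.6% of those within 20% of the length of Gfra1. The testis pattern was found once in Zbtb16, 4 times in Lin28a and 2 times in Gfra1. It occurred 5 times in Sall4, 4 times in Sohlh1, 3 times in Nanos2, 2 times in Dmrt1 and once in Kit, while no match lay in Nanos3 or Id4. It is common, being in 78.7% of all coding transcripts, and longer transcripts hold it more often. Among transcripts within 20% of a member's length it was in 93.7% for Zbtb16, 92.0% for Gfra1 and 86.8% for Lin28a. Their medians were 3, 3 and 2 matches. For Id4 and Nanos3, which hold no match, the shares were 88.8% and 35.3%. The matched letters are a description of the transcript and show neither an acetylated base nor the binding of a protein. Across all tested coding genes, Spearman's rho between the number of testis patterns per kilobase and the log2 fold change was 0.02 for acRIP over IgG and 0.04 for acRIP over input, a description over genes that share libraries.

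**Figure D3:**
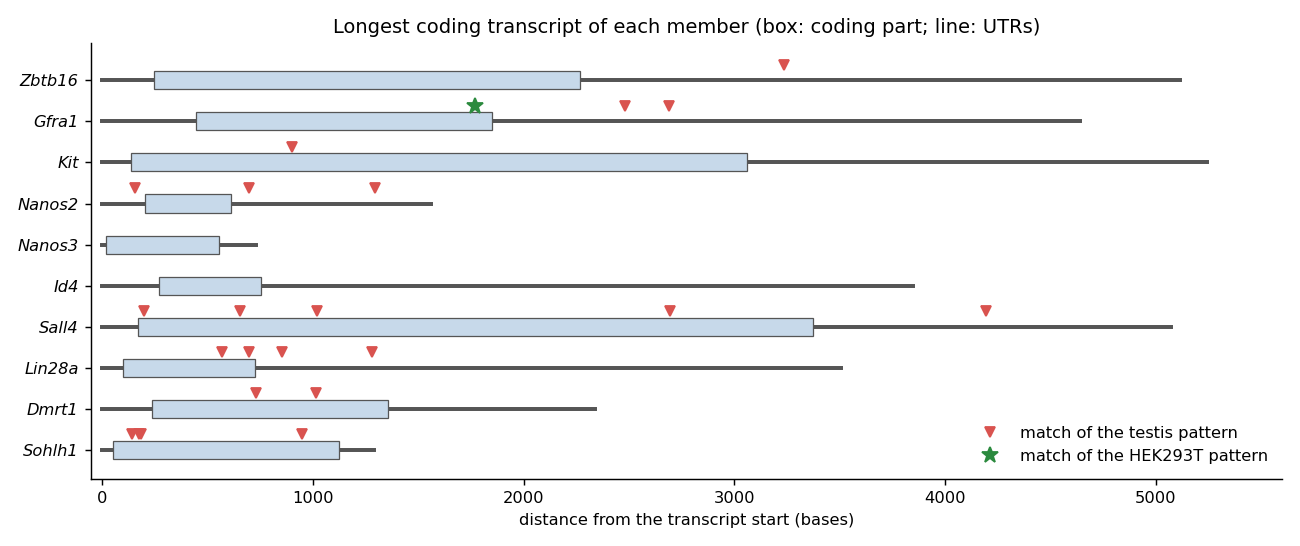
Longest coding transcript of each of the 10 members drawn to scale, by distance from the transcript start in bases (horizontal axis). Boxes are the coding part and lines the UTRs, red triangles mark matches of the testis pattern and the green star the single match of the HEK293T pattern, in Gfra1. Sall4, Lin28a and Sohlh1 hold 4 or 5 testis matches each, and Nanos3 and Id4 none.

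The genes around the members were taken from 5 lists, of which the stem and progenitor partners had 24 genes, 15 of them tested. In acRIP over IgG, 2 were higher and 3 lower, beside 11.5% and 20.9% of all genes tested. The median log2 fold changes were -0.18 for this list and -0.09 for all genes. Cdh1, the E-cadherin of undifferentiated spermatogonia, had 90, 152 and 120 counts in acRIP, 34, 14 and 12 in input and 0 in all 3 IgG libraries. In acRIP it was at least 41.2-fold higher than in IgG, against a floor of 3 counts per library (at least 20.6-fold against 6 counts, which is 3 read pairs), with an edgeR adjusted p of 3.18e-12. Like Zbtb16 it was higher in acRIP than in input as well (3.25 on the log2 scale, adjusted p 2.14e-09). Bcl6b, a GDNF-responsive repressor, rose by 2.04 on the log2 scale against IgG and by 1.03 against input. It was also called lower in IgG over input (-1.01). Lower in acRIP than in IgG were Adgra3, by 1.97, and the laminin receptor subunit Itga6, by 1.14. Neither was called against input (-0.11 and 0.05), and both were called higher in IgG over input (1.87 and 1.19), so that acRIP stood near input and IgG above it. Utf1, the remaining lower gene, had at most 2 counts in an acRIP library, 4 to 12 in an IgG library and 18 to 22 in an input library, and it was called against both (edgeR adjusted p 0.00394 and 0.000317). Ret, the signalling partner of GFRA1, was counted 24 times in input replicate 1 and at most 4 times in each other library, and it was not tested.

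Among 11 tested partners of differentiation, 4 were higher and 1 lower in acRIP over IgG, beside 11.5% and 20.9% of all genes. The medians were 0.44 for this list and -0.09 for all genes. The genes that rose were Sox3, a progenitor transcription factor, by 2.62 on the log2 scale, the meiotic methyltransferase Prdm9 by 2.09, the retinoic acid receptor Rarg by 1.57 and Sohlh2, the dimer partner of SOHLH1, by 1.03, with edgeR adjusted p of 0.00212, 0.000351, 0.000135 and 7.02e-06. Against input, Sox3 and Rarg were called as well, while Prdm9 (0.12) and Sohlh2 (0.06) were not. In IgG over input, Prdm9 was called lower (-1.98), and Sohlh2 stood at -0.97 and was not called. Sox3 had 32, 50 and 34 counts in acRIP and 0, 2 and 18 in IgG, so its IgG level rested mostly on replicate 3. Stra8, the retinoic acid target that opens meiosis, was lower than in IgG by 1.07 (edgeR adjusted p 2.60e-07). It was -0.21 against input (adjusted p 0.204) and 0.86 in IgG over input, neither of them called.

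The niche ligands, signals from the surrounding somatic cells, included the GDNF that GFRA1 binds. Of 11 tested, 6 were higher and 2 lower in acRIP over IgG, beside 11.5% and 20.9% of all genes. The medians were 1.13 for this list and -0.09 for all genes. Gdnf, the ligand of GFRA1, had 50, 36 and 30 counts in acRIP and 4 to 14 in IgG, and it rose by 2.10 on the log2 scale (SE 0.549, edgeR adjusted p 0.00134). Ligand and receptor thus went in opposite directions in acRIP, Gdnf higher and Gfra1 lower than in IgG and input alike. Fgf2 had 43 to 58 counts in acRIP and at most 2 in an IgG library, and Bmp4 had 16 to 25 and at most 2 (edgeR adjusted p 2.41e-07 and 0.000124). Both were called against input as well. Bmp4 was also called lower in IgG than in input (at least 2.57-fold, or at least 1.28-fold against 6 counts). Igf1 was higher than in IgG by 1.72, Nrg3 by 1.20 and Wnt5a by 1.13. None of these 3 was called against input, where Igf1 stood at 0.74, Wnt5a at 0.57 and Nrg3 at -0.36, and Nrg3 was called lower in IgG over input (-1.57). Nrg1 and Fgf8 had 0 counts in all acRIP libraries and were at least 5.39-fold and at least 4.98-fold lower than in IgG (at least 2.7-fold and 2.49-fold against 6 counts). Kitl, the ligand of KIT, had 106 to 128 counts in acRIP and 116 to 198 in IgG and was not called.

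Paralogs of the members were called in both directions. Of 22 tested, 4 were higher and 5 lower in acRIP over IgG, beside 11.5% and 20.9% of all genes. The medians were -0.07 for this list and -0.09 for all genes. Lin28b, which like LIN28A blocks let-7, rose by 1.85 on the log2 scale against IgG (edgeR adjusted p 5.00e-08), but at 0.81 against input it was not called, and it was called lower in IgG over input (-1.04). Nanos1 rose by 1.30 and Id3 by 1.04 against IgG, and both were called against input. Sohlh2, given above, was the fourth. In the Id family, Id1 had 0 counts in acRIP and 32 to 46 in IgG (at least 12.3-fold lower against 3 counts, at least 6.12-fold against 6), Id3 was higher and Id4 was not called. Among receptor kinases related to KIT, Flt3 was at least 17.2-fold lower (at least 8.59-fold against 6 counts), Csf1r fell by 3.49 and Pdgfra by 1.98, while Pdgfrb (0.54) and Kit were not called. Against input, Flt3, Csf1r, Pdgfra and Pdgfrb (-1.20) were all called lower. Sall1, a paralog of Sall4, was at least 4.69-fold lower (at least 2.35-fold against 6 counts). Genes whose proteins bind the members' products, 21 in all and all tested, gave 0 higher and 2 lower calls in acRIP over IgG. All genes gave 11.5% and 20.9%, and the medians were -0.14 for this list and -0.09 for all genes. The lower genes were Pik3r1, a subunit of the kinase that KIT recruits, lower by 2.39, and the deacetylase Hdac2, lower by 1.58. Both were called higher in IgG over input (1.39 and 1.41). Against input, Pik3r1 was called lower, just past the 2-fold limit (edgeR adjusted p 0.0166), and Hdac2 was not called (-0.17). In IgG over input 8 of the 21 were higher and 1 lower, beside 13.5% and 7.22% of all genes. The medians were 0.72 for this list and -0.01 for all genes. Among the 8 was Pum2, an RNA-binding partner of the Nanos proteins, at 1.89 (edgeR adjusted p 3.35e-19).

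**Figure D4:**
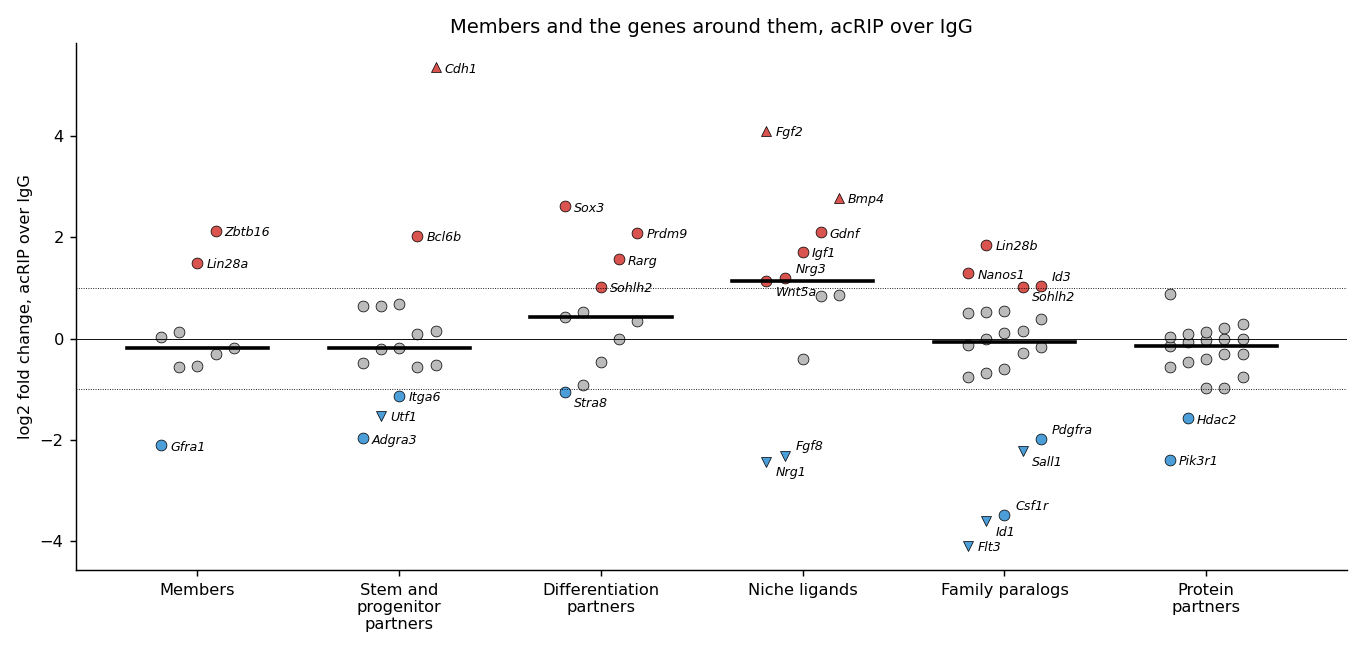
log2 fold change in acRIP over IgG (vertical axis) of the tested members and of the tested genes in 5 lists around them, each point a gene, with the median as a black bar and 0 and 2-fold as solid and dotted lines. Red genes were called higher, blue lower and grey not called, and triangles are genes with at most 3 counts in every library of one group, drawn against 3 counts. Members run from Gfra1 at -2.11 to Zbtb16 at 2.13, and the niche ligands have the highest median, 1.13.

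Other values moved with the groups. Counts on the 18S ribosomal RNA locus made up 0.540% to 0.613% of the counts in input, 5.14% to 5.57% in IgG and 9.35% to 10.6% in acRIP. Genes with at least 1 count numbered 28552 to 29642 in an input library, 26204 to 26874 in an IgG library and 22206 to 22402 in an acRIP library, so fewer genes were seen in acRIP, where Gfra1 was low and where Nrg1, Fgf8, Id1, Flt3 and Sall1 had 0 counts. The summed level of 8 spermatocyte genes was 485 to 498 FPKM in input, 439 to 447 in IgG and 330 to 345 in acRIP, but not all of its genes fell. Tex101 (187 FPKM in input, 118 in acRIP) and Hormad1 (80.8 and 43.7) made up most of the difference. Sycp3 (57.8 and 30.9), Spo11 (33.2 and 15.2) and Piwil1 (60.4 and 43.8) were lower in acRIP too, as was the mean of Dmc1 (5.28 and 3.70). Sycp2 stood at 31.7 and 31.1, and Sycp1 at 35.7 and 50.1. In acRIP over input, Spo11 was the only one of the 8 called, and it was lower (-1.04), beside 22.9% of all genes. The sum of 8 Sertoli genes, at 262 to 273 in input, 222 to 234 in IgG and 198 to 204 in acRIP, followed Clu (220.3 FPKM in input, 153 in acRIP). Cldn11 stood at 36.9 and 36.7, Wt1 at 4.90 and 5.75, Sox9 at 2.17 and 2.81, and Gata4 (0.388 and 1.52) was called higher in acRIP over input. In acRIP over IgG, where 11.5% of all genes were higher and 20.9% lower, 0 of the 8 spermatocyte genes were called. Of 6 tested Sertoli genes, 0 were higher and 1, Fshr, was lower. The part of these values in those of Zbtb16, Lin28a and Gfra1 was not tested.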

How the data were processed

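The authors trimmed paired-end reads with Trim Galore 0.6.7, mapped them to mm10 with STAR 2.7.10a and deposited raw counts of uniquely mapped reads per gene from featureCounts 2.0.2. The annotation used for counting, its use of strand and its treatment of mates are not given in the sources used here. Input RNA was adjusted to one concentration, precipitated RNA could not be quantified, and all cDNA was amplified before library construction (Smart-seq2), so levels are relative within a library. Per-sample columns left unused numbered 0. Gene symbols came from GENCODE vM21, where 55141 identifiers matched.

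From the deposited counts, edgeR 4.0.16 (R 4.3.3) was run with TMM normalization, its default filter on low counts (filterByExpr) and a quasi-likelihood test, with 1 mean per group over all 9 libraries and Benjamini-Hochberg adjustment over 22510 genes. A call needed more than a 2-fold change and an adjusted p under 0.05. FPKM was computed from the deposited counts, gene length and library total. Folds against a group with at most 3 counts in every library are given as bounds against 3 counts. The script was tested on simulated data. Alternatives were DESeq2 1.42.0, limma 3.58.1 on log2(FPKM + 1) and log2(FPKM + 0.1), other normalizations and filters, halved counts, fits of 6 libraries, a test against 2-fold, the replicate number as a block and leaving out each library in turn. The use of total counts with no normalization factor was added after seeing the data. From each list, genes called in acRIP over IgG without overlap between libraries were named, up to 5 a direction by size. Wnt5a, Pdgfrb, Ret, Kitl, Pum2 and the marker genes fall outside this rule. The members and lists were chosen with earlier results of these data known. Numbers were plotted with matplotlib 3.10.9. Peaks were not analysed here.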

Additional observations from a re-analysis of the deposited data

How the results depend on the processing

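Over the alternatives, 543 values of single members kept their direction and their side of the threshold, 10 lost a call, 3 gained one and 11 changed sign. Members higher in acRIP than in IgG, 2 as reported, were 1 in the test against a fold change of 2 and 0 with FPKM + 1, and 1 to 2 with a library left out. Members higher than in both groups likewise became 1 and 0, and 1 to 2 with a library left out. With FPKM + 1, members lower than in input, and lower than in both groups, became 0. Members higher in IgG over input became 1 in the test against a fold change of 2 and 1 with FPKM + 1. Zbtb16 was 0.97 over IgG and Gfra1 -0.96 over input with FPKM + 1, both just under 2-fold because the pseudocount damps low levels. Lin28a lost its calls in the test against a fold change of 2 (edgeR adjusted p 0.189 and 0.208) and without acRIP replicate 3. Dmrt1 in IgG over input lost its call in the same test (adjusted p 0.152). No signed value that turned had been called. Sall4 in IgG over input was -0.0416 with upper quartile normalization and -0.28 to 0.35 with a library left out, and Lin28a there was -0.33 to 0.0347. Nanos3 in acRIP over IgG was -0.17 to 0.31. Sohlh1 in acRIP over IgG was -0.0029 with FPKM + 1, -0.0036 with FPKM + 0.1, -0.0137 with total counts and -0.11 to 0.15 with a library left out, and -0.0135 to 0.34 in IgG over input. The cause was not tested. Of the counts of the lists, 86 stayed within 1.5 times and 4 moved. With DESeq2 the stem and progenitor partners had 5 lower calls over IgG and 4 over input, and with upper quartile normalization 2 differentiation partners and 4 niche ligands were lower in IgG over input. With FPKM + 1, 1015 of 35699 genes were called higher over IgG and 1462 lower, against 2590 and 4701 of 22510 as reported. On the same scale, 2029 were lower than in input and 1258 were higher in IgG over input. The test against a fold change of 2 called 1526 of 22510 higher over IgG and 1724 higher in IgG over input. Other normalizations moved the median of all genes by at most 0.10 on the log2 scale.

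With the replicate number as a block, Zbtb16 in acRIP over IgG was 2.16 and no call of a member changed, and all genes called numbered 2557 higher and 4639 lower. Deviations from the group means correlated at -0.0041 to 0.031 between libraries of the same number. Between libraries of different numbers the correlation was -0.031 to 0.021. With 3 libraries per group, these values cannot tell whether libraries of one number came from the same RNA.

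Counts per library limit Nanos2, Sall4 and Lin28a most. Averaged over genes, replicates of a group differed beyond counting error, with a mean chi-square of 3.85 to 5.84 per gene. Part of this would arise if each read pair gave 2 counts, and abundant genes can dominate the mean. It does not give the spread at the members' counts. How mates were counted is not stated, and if each pair gave 2 counts, the effective depth is smaller than the totals.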

Other observations

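Somatic marker genes outside the niche ligands moved in both directions. Of 4 endothelial genes, Cdh5, the cadherin of vessel walls, and the angiopoietin receptor Tek were higher in acRIP over IgG by 3.77 and 1.92 on the log2 scale (edgeR adjusted p 6.73e-10 and 6.61e-09), while Pecam1 fell by 1.45 (adjusted p 0.00670) and Kdr was not called. Of 4 macrophage genes, Cd68 fell by 4.43 and Csf1r by 3.49 (adjusted p 2.85e-08 and 2.50e-09), and Adgre1 and Mrc1 were not called. Of 4 peritubular genes, Tagln was higher by 4.08 (adjusted p 1.87e-06), while Acta2 (-0.06), Myh11 (0.22) and Cnn1 (0.59) were not called. In acRIP over IgG, where 11.5% of all genes were called higher and 20.9% lower, the 8 spermatid and 6 Leydig genes gave 0 calls. These genes fall outside the rule for named genes and were chosen after their values were seen.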
